A study of Homo sapiens with 8 samples.

Results

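The cytosolic ribosomal protein genes encode the proteins that, with ribosomal RNA, make up the 40S and 60S subunits of the ribosome. They were taken as the protein-coding rows whose symbol is RPL or RPS followed by a number and at most one of the letters A, X or L, together with RPLP0, RPLP1, RPLP2 and RPSA, without RPS27L. The rule found 80 genes among the 46427 rows of the NCI-H1944 table and the same 80 symbols among the 61271 rows of the NCI-H647 table. Of these, 31 encode small-subunit proteins and 49 large-subunit proteins. No symbol had more than 1 such row, so none had to be chosen by its count.

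The RNA libraries came from 2 established human lung cancer lines labelled as wild type, NCI-H1944 and NCI-H647, with the question of how expression changes after a pulse of MPS1 inhibition. Cells had received 100 nM BAY-1217389, an inhibitor of the mitotic checkpoint kinase MPS1 (written MPS1i here), or DMSO for 48 h, and all cells were then grown for a further 24 h without either. Each of the 4 groups, MPS1i and DMSO in each line, had 2 libraries. NCI-H1944 libraries came from a kit for mRNA and NCI-H647 libraries from a kit that removes ribosomal RNA, so the line and the kit cannot be told apart, and levels are compared within a line.

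Ribosomal protein mRNAs are among the most abundant of a growing cell, and their proteins are used in near-equal proportion. Most of them begin with a C followed by a run of pyrimidines, the 5′ terminal oligopyrimidine (TOP) motif, which is shared with mRNAs of translation factors. The protein LARP1 binds the capped TOP end, and the kinase mTOR controls through it and through eIF4E-binding proteins how much TOP mRNA is translated and how much is stored. Some ribosomal proteins also act outside the ribosome: RPL5 and RPL11, bound to 5S rRNA, inhibit MDM2 and so raise p53.

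The start of the mRNA is shown for genes at both ends of the range of change, because it is the feature that most of the family has in common. Each line gives 12 bases before and 18 bases from the transcription start listed by RefSeq (GRCh38.p14), 5′ to 3′ on the strand of the gene, with the pyrimidine run that begins at a starting C in capitals.
RPLP0: cgggcgcgaggcCCTTCTCTCgccaggcgt
RPS6: cggaagttggccCTCTTTTCCgtggcgcct
RPS3: cgcgagccacttCCTTTCCTTTCagcggag
RPSA: cctgccgcctgtCTTTTCCgtgctacctgc
RPL3: aggccgaccggcCTCTaccggcgggatttg
RPS29: cgagcgcgcagctggcagcggtggttgttt
RPL28: cccctcgccttcCTCTTTCCgtctcaggtc
RPS27: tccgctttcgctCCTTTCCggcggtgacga
RPS19: aaccccgtcgttCCCTTTCCCCTggctggc
FAU: cctcgcttcttcCTCTTTCTCgactccatc
RPS27L: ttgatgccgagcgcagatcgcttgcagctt

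The windows lie at chr12:120201094-120201123 on the minus strand (RPLP0), chr9:19380219-19380248 on the minus strand (RPS6), chr11:75399506-75399535 on the plus strand (RPS3), chr3:39406708-39406737 on the plus strand (RPSA), chr22:39319606-39319635 on the minus strand (RPL3), chr14:49598693-49598722 on the minus strand (RPS29), chr19:55385920-55385949 on the plus strand (RPL28), chr1:153990750-153990779 on the plus strand (RPS27), chr19:41860243-41860272 on the plus strand (RPS19), chr11:65122117-65122146 on the minus strand (FAU) and chr15:63157460-63157489 on the minus strand (RPS27L). Windows were listed for 63 of the 80 genes, and 46 of these (73.0%) had a start at C followed by at least 4 more C or T bases on the gene's strand, against 1404 of the 27305 symbols with a window (5.14%). The run was present at RPL28, at RPS27 and at 1 of the 2 starts listed for RPS19 (the one shown), the genes with the smallest falls or a rise in NCI-H647, and at FAU, which makes a ribosomal protein but was not lower in either line. RPS29 and RPS27L held none at the listed start, and that of RPL3 was 4 bases long. RPL10A, whose window is not shown, was among the 5 largest falls in both lines. Its listed start was an A, and a run of C and T bases began a few bases after it. Across the family, the 46 genes with the run had a median log2 fold change of -0.19 in NCI-H1944 and -0.40 in NCI-H647, against -0.19 and -0.45 for genes with a window that lacked it (17 genes, of which 16 could be tested in NCI-H647).

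Libraries held from 38904473 to 43661342 counts in NCI-H1944 and from 13358514 to 19550859 counts in NCI-H647. MPS1i libraries were the deeper ones in NCI-H1944 and the shallower ones in NCI-H647. Of the epithelial markers, KRT8 and KRT18 were high in both lines, KRT19 was at 0 in NCI-H1944 and CDH1 held at most 9 counts in NCI-H647. The 4 leukocyte markers together had 154 and 201 counts in MPS1i libraries, against 121 and 161 in DMSO libraries of NCI-H1944, with PTPRC at 0, and 33 and 35 against 20 and 16 counts in NCI-H647. The 5 fibroblast and endothelial markers had 341 and 382 counts in MPS1i libraries, against 192 and 211 in DMSO libraries of NCI-H1944, and 716 and 655 against 1180 and 1140 counts in NCI-H647. Their part in the results was not tested.

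The ribosomal protein genes took a smaller part of the RNA after MPS1i in both lines. Together they held 5.51% and 5.51% of all counts in MPS1i libraries of NCI-H1944, against 6.503% and 6.598% in DMSO libraries. In NCI-H647 the share was 6.06% and 6.20% in MPS1i libraries, against 7.89% and 7.72% in DMSO libraries. The groups did not overlap in either line, and the mean share fell by 15.9% and 21.5%. With 2 libraries a group, an exact two-sided permutation test cannot go below 0.333, and no test was run on the share. Small-subunit genes fell by 15.5% and large-subunit genes by 16.2% of their mean share in NCI-H1944, and by 23.2% and 20.4% in NCI-H647.

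Protein-coding rows as a whole took 91.9% and 92.0% of counts in MPS1i libraries of NCI-H647, against 92.9% and 93.5% in DMSO libraries. Within protein-coding counts the ribosomal protein share there was 6.59% and 6.74% in MPS1i libraries, against 8.49% and 8.26% in DMSO libraries. Shares are relative to the other RNA of a library. In these bulk samples a lower level in each cell and a different mix of cells cannot be told apart.

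**Figure D1:**
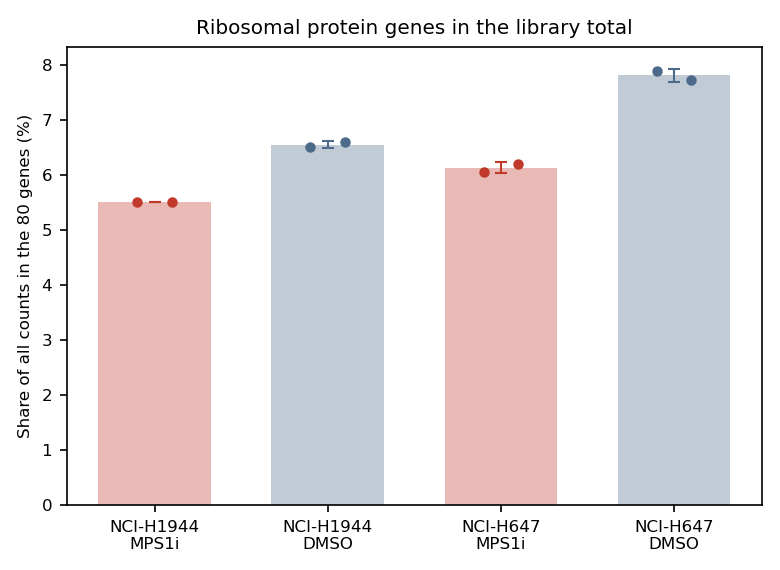
Share of all counts held by the 80 ribosomal protein genes (y axis, percent) in MPS1i and DMSO libraries of each line. Points are the 2 libraries of a group, bars their mean and whiskers the SD; the MPS1i bars are at 5.51% and 6.13%, below the DMSO bars at 6.55% and 7.81%.

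Gene by gene, nearly the whole family was lower after MPS1i. In NCI-H1944, 79 of the 80 genes passed the filter on low counts, and edgeR's quasi-likelihood test (Benjamini-Hochberg adjusted p under 0.05 over all rows) called 74 lower and none higher, beside 12.4% of all 16738 rows tested called lower, 13.6% called higher and 26% called either way. At an unadjusted p under 0.05, none was higher either, and DESeq2 called none higher. Both MPS1i libraries were below both DMSO libraries for 77 genes, beside 30.5% of all rows tested. The changes were small: the median log2 fold change was -0.19 (12.3% lower), with a range of -0.49 to 0.03, against a median of 0.00 over all rows. A test against a minimum fold of 1.2 left 10 genes lower.

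In NCI-H647, 78 genes passed the filter. Here 73 were called lower and 1 higher by edgeR's test, beside 27% and 27.3% of all 15049 rows tested (54.4% either way). Both MPS1i libraries lay below both DMSO libraries for 74 genes, beside 37.9% of all rows tested. The median log2 fold change was -0.40 (24.3% lower), with a range of -1.04 to 0.14, against 0.01 over all rows. Of the genes called lower, 34 in NCI-H647 and 1 in NCI-H1944, RPL3, had an estimated fall of at least 25%, a size that was not itself tested. The share of all rows with such a fall was not counted. At any size, 27% of rows were called lower in NCI-H647 and 12.4% in NCI-H1944.

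Since these genes are highly expressed, the rows with a mean of at least 100 CPM (counts scaled to the library size, CPM, with TMM factors), a floor chosen after the values were seen, give a closer background. Of these, 29.5% were called lower in NCI-H1944, with a median log2 fold change of -0.01, and 44.9% in NCI-H647, with a median of -0.06. They include 77 and 76 of the ribosomal protein genes themselves.

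**Figure D2:**
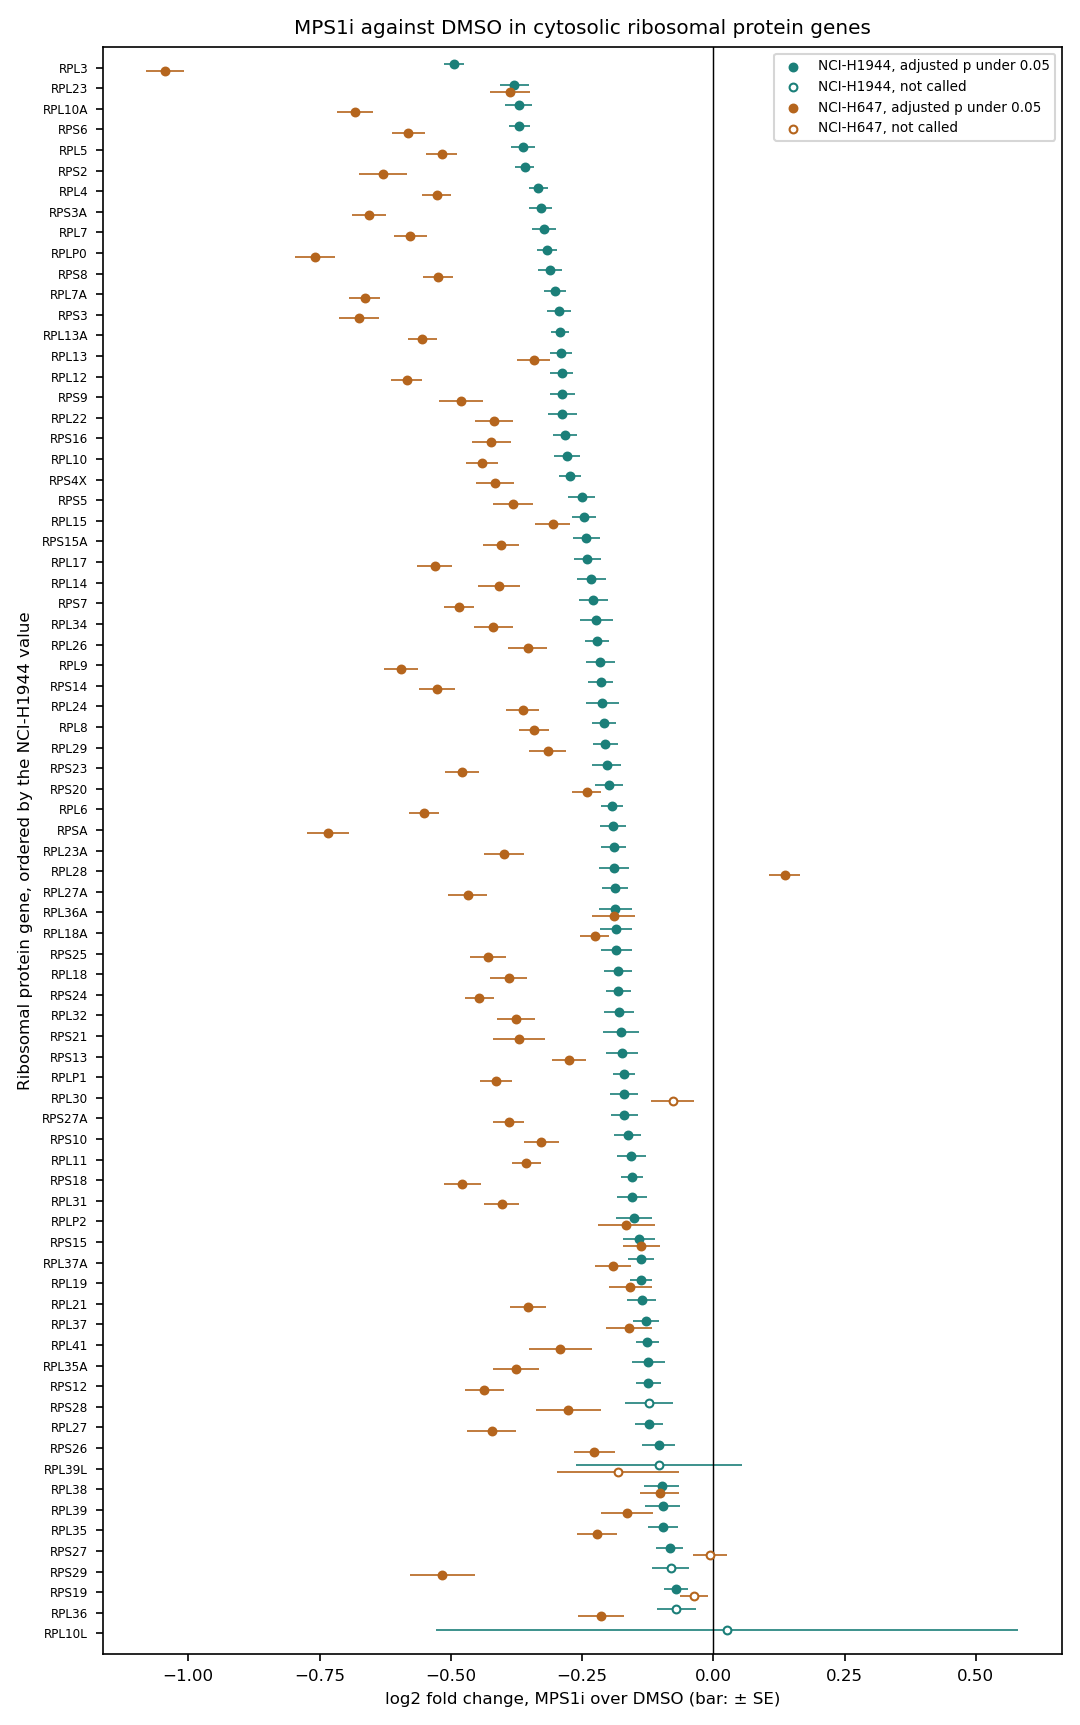
Log2 fold change of MPS1i over DMSO (x axis) for the ribosomal protein genes tested (rows, without 2 genes that were called lower in both lines, ordered by the NCI-H1944 value). Bars are the SE worked back from edgeR's F statistic, with 2 libraries a group. Filled points passed the adjusted threshold of 0.05 and open points did not; 72 NCI-H1944 points and 71 NCI-H647 points are filled on the left of 0, and RPL28 in NCI-H647 is the one filled point on the right.

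Among the large-subunit genes, 45 of 48 tested were called lower in NCI-H1944 and 44 of 47 in NCI-H647, with medians of -0.19 and -0.38 on the log2 scale. That is near the rate of the whole family (93.7% and 93.6%), beside 12.4% and 27% of all rows tested. RPL3, which lies near the peptidyl transferase centre, fell furthest in both lines. It had 1506 and 1536 CPM in MPS1i libraries, against 2139 and 2144 CPM in DMSO libraries of NCI-H1944, and 473 and 489 CPM in MPS1i libraries, against 1023 and 959 CPM in DMSO libraries of NCI-H647. In each line the MPS1i libraries stood well clear of the DMSO libraries. Its log2 fold change was -0.49 ± 0.02 in NCI-H1944 (SE, adjusted p = 3.7e-12, edgeR) and -1.04 ± 0.04 in NCI-H647 (adjusted p = 2.7e-12), a fall of 29% and 51.5%.

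RPL10A, the protein of the L1 stalk, had 459.6 and 469 CPM in MPS1i libraries, against 597 and 604 CPM in DMSO libraries of NCI-H1944, and 486 and 491 CPM in MPS1i libraries, against 760.5 and 807 CPM in DMSO libraries of NCI-H647. The groups were apart in both lines, and its log2 fold change was -0.37 ± 0.03 and -0.68 ± 0.03 (edgeR adjusted p = 1.6e-08 and 2.7e-10). RPL23, at the face of the large subunit that meets the small one, was the second in the order of falls in NCI-H1944. It had 395 and 402 CPM in MPS1i libraries, against 521 and 515 CPM in DMSO libraries of NCI-H1944, and 791 and 857 CPM in MPS1i libraries, against 1106 and 1050.0 CPM in DMSO libraries of NCI-H647. Both MPS1i libraries were the lower ones in each line, with log2 fold changes of -0.38 ± 0.03 and -0.39 ± 0.04 (edgeR adjusted p = 1.7e-08 and 5.4e-07).

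The pair that carries 5S rRNA and binds MDM2 was lower in both lines. RPL5 had 673 and 672 CPM in MPS1i libraries, against 864 and 865 CPM in DMSO libraries of NCI-H1944, and 949.8 and 993 CPM in MPS1i libraries, against 1402 and 1379 CPM in DMSO libraries of NCI-H647. Replicates lay within a few percent of each other and the groups were separate. RPL11 had 404 and 404 CPM in MPS1i libraries, against 451 and 450.1 CPM in DMSO libraries of NCI-H1944, and 1174 and 1183 CPM in MPS1i libraries, against 1532 and 1483 CPM in DMSO libraries of NCI-H647. Here too the MPS1i libraries were below the DMSO libraries, by less than for RPL5. The log2 fold changes were -0.36 ± 0.02 and -0.52 ± 0.03 for RPL5 and -0.16 ± 0.03 and -0.36 ± 0.03 for RPL11, in NCI-H1944 and NCI-H647 in that order (the highest edgeR adjusted p of the 4 was 0.00036).

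Of the P stalk, which recruits elongation factors, the base protein RPLP0 and the acidic proteins RPLP1 and RPLP2 were all lower. RPLP0 had 1561 and 1588 CPM in MPS1i libraries, against 1970.3 and 1952 CPM in DMSO libraries of NCI-H1944, and 789 and 733 CPM in MPS1i libraries, against 1326 and 1249 CPM in DMSO libraries of NCI-H647. The groups did not overlap, and the gap was wider in NCI-H647, where the log2 fold change was -0.76 ± 0.04 against -0.32 ± 0.02 in NCI-H1944 (edgeR adjusted p = 2.5e-10 and 1.8e-09). RPLP1 had log2 fold changes of -0.41 ± 0.03 in NCI-H647 and -0.17 ± 0.02 in NCI-H1944 (edgeR adjusted p = 2.7e-08 and 1.4e-05). RPLP2 had 178 and 168 CPM in MPS1i libraries, against 206 and 182 CPM in DMSO libraries of NCI-H647, where the higher MPS1i library and the lower DMSO library nearly met. Its log2 fold change there was -0.17 ± 0.05 (edgeR adjusted p = 0.0171), a call lost in 4 of the 12 alternatives without a minimum fold. In NCI-H1944 it was -0.15 ± 0.03 (adjusted p = 0.00337), a call lost without a filter on low counts.

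RPL28, a large-subunit protein that budding yeast lacks, was the exception to the direction. It had 1501 and 1462 CPM in MPS1i libraries, against 1374 and 1323 CPM in DMSO libraries of NCI-H647, and both MPS1i libraries were the higher ones. In NCI-H1944 it had 521 and 541 CPM in MPS1i libraries, against 593 and 617 CPM in DMSO libraries, and both MPS1i libraries were the lower ones. The log2 fold change was 0.14 ± 0.03 in NCI-H647 (edgeR adjusted p = 0.00118, 9.89% higher) and -0.19 ± 0.03 in NCI-H1944 (adjusted p = 0.00011). The rise was called under every alternative except the minimum fold of 1.2.

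Other large-subunit genes changed little in one line or both. RPL30 had 899.6 and 956 CPM in MPS1i libraries, against 1026 and 931 CPM in DMSO libraries of NCI-H647, where the groups overlapped (log2 fold change -0.08 ± 0.04, edgeR adjusted p = 0.13), and it fell in NCI-H1944 (-0.17 ± 0.03, adjusted p = 0.00015). RPL36 had 174 and 175 CPM in MPS1i libraries, against 178 and 188 CPM in DMSO libraries of NCI-H1944, where the groups were apart by less than the gap between DMSO replicates. Its log2 fold change there was -0.07 ± 0.04 (edgeR adjusted p = 0.184), and it fell in NCI-H647 (-0.21 ± 0.04, adjusted p = 0.0007). RPL38 was called lower in both lines, at -0.10 and -0.10, but the call was lost in 4 of 12 alternatives in NCI-H1944 and in 6 of 12 in NCI-H647. RPL41, the shortest ribosomal protein, had log2 fold changes of -0.13 ± 0.02 in NCI-H1944 and -0.29 ± 0.06 in NCI-H647 (edgeR adjusted p = 0.00035 and 0.00072). Its call was lost in NCI-H1944 with all 8 libraries in one fit and in NCI-H647 with DESeq2.

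The 27 large-subunit genes not named by rule were all called lower in both lines, with both MPS1i libraries below both DMSO libraries. The rule named every gene not called and the largest rises, so these calls follow from the choice of names. Their log2 fold changes ran from -0.33 (RPL4) to -0.10 (RPL35) in NCI-H1944 and from -0.66 (RPL7A) to -0.16 (RPL19) in NCI-H647.

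Of the small-subunit genes, 29 of 31 were called lower in each line, with median log2 fold changes of -0.18 in NCI-H1944 and -0.42 in NCI-H647. That too is near the rate of the whole family (93.7% and 93.6%), beside 12.4% and 27% of all rows tested. RPS6, the ribosomal substrate of S6 kinase, had 1427 and 1422 CPM in MPS1i libraries, against 1817 and 1864 CPM in DMSO libraries of NCI-H1944, and 2385 and 2553 CPM in MPS1i libraries, against 3657 and 3727 CPM in DMSO libraries of NCI-H647. The groups were clearly separate in both, with log2 fold changes of -0.37 ± 0.02 and -0.58 ± 0.03 (edgeR adjusted p = 4.2e-10 and 8.2e-10). RPS3, at the channel through which mRNA enters, had 743 and 763 CPM in MPS1i libraries, against 919 and 927 CPM in DMSO libraries of NCI-H1944, and 1304 and 1274 CPM in MPS1i libraries, against 2155 and 1960.1 CPM in DMSO libraries of NCI-H647. MPS1i libraries were again the lower ones, with log2 fold changes of -0.29 ± 0.02 and -0.67 ± 0.04 (edgeR adjusted p = 7.8e-08 and 9.4e-10).

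RPSA, a late-joining small-subunit protein also known as a laminin receptor, had 572 and 576 CPM in MPS1i libraries, against 663 and 648 CPM in DMSO libraries of NCI-H1944. In NCI-H647 it had 175 and 167 CPM in MPS1i libraries, against 282 and 287 CPM in DMSO libraries. The NCI-H1944 groups were set apart by a small gap and the NCI-H647 groups by a wide one: the log2 fold change was -0.19 ± 0.03 (edgeR adjusted p = 2.5e-05) and -0.73 ± 0.04 (adjusted p = 7.6e-10). RPS29 had 195 and 190.2 CPM in MPS1i libraries, against 199.5 and 208 CPM in DMSO libraries of NCI-H1944, and 182 and 179.5 CPM in MPS1i libraries, against 282 and 235 CPM in DMSO libraries of NCI-H647. The groups touched closely in NCI-H1944, while in NCI-H647 the DMSO replicates differed from each other but both were above the MPS1i libraries. RPS29 was not called in NCI-H1944 (-0.08 ± 0.04, edgeR adjusted p = 0.103) and fell in NCI-H647 (-0.52 ± 0.06, adjusted p = 5.1e-06).

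RPS27 and RPS19 changed least among the small-subunit genes of NCI-H647. RPS27, a zinc-finger protein, had 679 and 649 CPM in MPS1i libraries, against 673 and 661 CPM in DMSO libraries of NCI-H647, and the groups overlapped. RPS19, the gene most often mutated in Diamond-Blackfan anaemia, had 1465 and 1449 CPM in MPS1i libraries, against 1504 and 1485 CPM in DMSO libraries of NCI-H647, with a narrow gap between the groups. Neither was called there (log2 fold change -0.01 ± 0.03 and -0.04 ± 0.03, edgeR adjusted p = 0.876 and 0.277). Both were called lower in NCI-H1944, at -0.08 and -0.07 (edgeR adjusted p = 0.0264 and 0.0321), but the call was lost in 4 of 12 alternatives for RPS27 and in 5 of 12 for RPS19. RPS28 had 168 and 189 CPM in MPS1i libraries, against 189.7 and 199 CPM in DMSO libraries of NCI-H1944, where the groups almost met, and was not called (-0.12 ± 0.05, edgeR adjusted p = 0.0642). It fell in NCI-H647 (-0.28 ± 0.06, adjusted p = 0.00148).

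RPS27A, made as a fusion with ubiquitin, had 603 and 584 CPM in MPS1i libraries, against 665 and 669 CPM in DMSO libraries of NCI-H1944, and 1044 and 1063 CPM in MPS1i libraries, against 1409 and 1350.4 CPM in DMSO libraries of NCI-H647. The MPS1i libraries were the lower ones in both lines (log2 fold change -0.17 ± 0.03 and -0.39 ± 0.03, edgeR adjusted p = 0.00011 and 4e-08). The 23 small-subunit genes not named by rule were all called lower in both lines, which again follows from the choice of names. They ran from -0.36 (RPS2) to -0.10 (RPS26) in NCI-H1944, with a largest fall of -0.66 (RPS3A) in NCI-H647. Of 8 genes mutated in Diamond-Blackfan anaemia (RPS7, RPS10, RPS19, RPS24, RPS26, RPL5, RPL11 and RPL35A), 8 were lower in NCI-H1944 and 7 in NCI-H647, RPS19 being the other. This is near the rate of the whole family tested (93.7% and 93.6% lower), beside 12.4% and 27% of all rows tested. In NCI-H1944 the calls of RPS19, RPS26 and RPL35A were each lost in at least 3 of 12 alternatives.

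**Figure D3:**
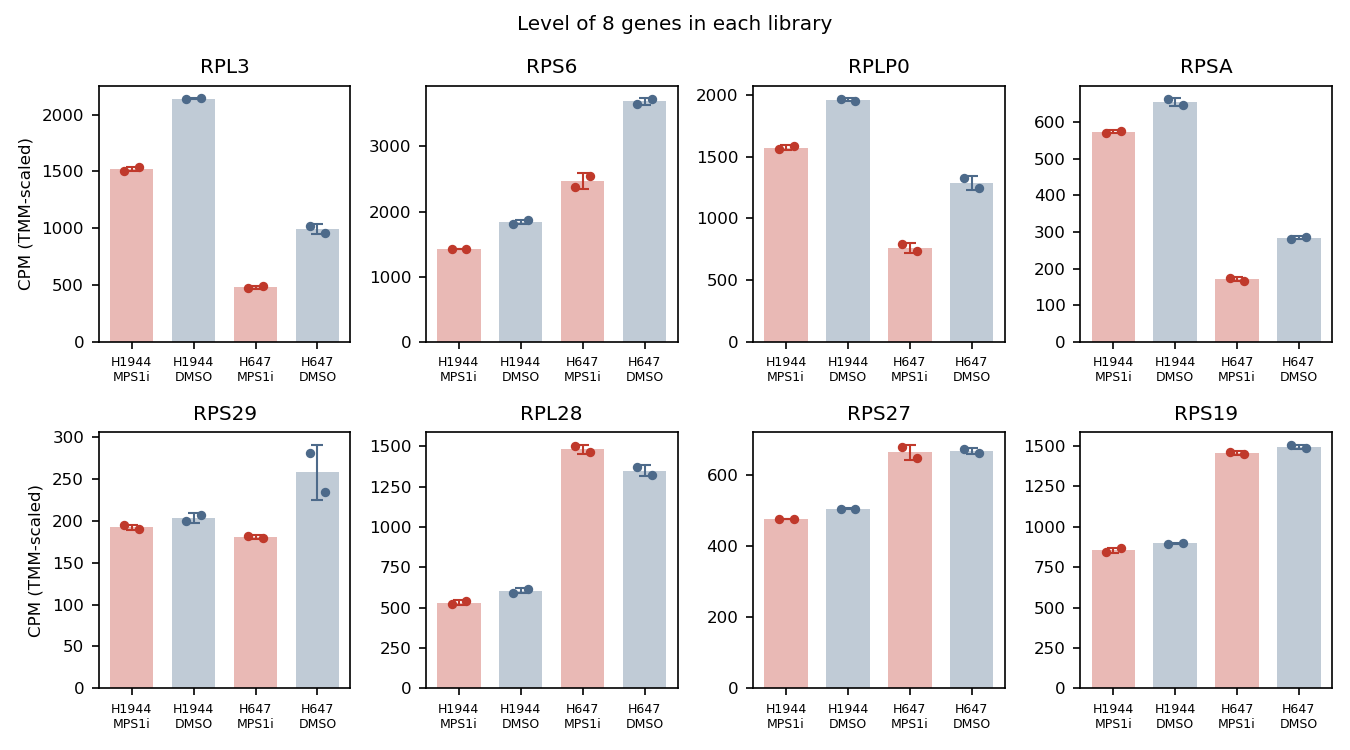
Level of 8 ribosomal protein genes (y axes, TMM-scaled CPM, each from 0) in MPS1i and DMSO libraries of each line. Points are the 2 libraries of a group, bars their mean and whiskers the SD; RPL28 is the one gene whose MPS1i bar is above the DMSO bar in NCI-H647 (1482 and 1348 CPM).

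Several family members have a near-copy whose use differs between tissues, and 3 of them fall under the rule. RPL3L, the striated-muscle copy of RPL3, had no count in any NCI-H1944 library and 2 and 0 counts in MPS1i libraries of NCI-H647, against 0 and 0 in DMSO libraries, and could not be tested. RPL10L, a copy of RPL10 made in testis, had 15 and 13 counts in MPS1i libraries of NCI-H1944, against 15 and 10 in DMSO libraries, and none in NCI-H647. The counts overlapped, with a log2 fold change of 0.03 ± 0.55 (edgeR adjusted p = 0.98). RPL39L, a copy of the exit-tunnel protein RPL39, had 4.75 and 4.09 CPM in MPS1i libraries, against 4.32 and 5.19 CPM in DMSO libraries of NCI-H1944, and 14.5 and 11.4 CPM in MPS1i libraries, against 15.1 and 14.3 CPM in DMSO libraries of NCI-H647. Its groups overlapped in both lines (log2 fold change -0.10 ± 0.16 and -0.18 ± 0.12, edgeR adjusted p = 0.697 and 0.202).

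Their partners were lower. RPL10, which joins late so that the subunits can meet, had log2 fold changes of -0.28 ± 0.02 in NCI-H1944 and -0.44 ± 0.03 in NCI-H647 (edgeR adjusted p = 2e-07 and 1.3e-08). RPL39 was called at -0.10 ± 0.03 and -0.16 ± 0.05 (edgeR adjusted p = 0.0429 and 0.0105), a call lost in 5 of 12 alternatives in each line. Reads of near-identical copies cannot be assigned with certainty, and the SE of RPL39L leaves room for a change as large as that of RPL39.

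FAU and 5 paralogs outside the rule had median log2 fold changes of -0.02 in NCI-H1944 and 0.00 in NCI-H647. In NCI-H1944, 1 of the 6 was higher and 1 lower by edgeR, and in NCI-H647 none was higher and 1 was lower, against 26% and 54.4% of all rows called either way. FAU, which makes the small-subunit protein S30 fused to a ubiquitin-like protein, had 199.96 and 209 CPM in MPS1i libraries, against 203 and 213 CPM in DMSO libraries of NCI-H1944, and 209.7 and 229 CPM in MPS1i libraries, against 212 and 214 CPM in DMSO libraries of NCI-H647. The groups overlapped in both lines (log2 fold change -0.03 ± 0.04 and 0.04 ± 0.04, edgeR adjusted p = 0.667 and 0.473).

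RPS27L, a p53-induced copy of RPS27, had 99.2 and 96.6 CPM in MPS1i libraries, against 88.7 and 91 CPM in DMSO libraries of NCI-H1944, and 56.1 and 55 CPM in MPS1i libraries, against 57.3 and 56.7 CPM in DMSO libraries of NCI-H647. It was called higher in NCI-H1944 (log2 fold change 0.12 ± 0.04, edgeR adjusted p = 0.0296), a call lost in 5 of 12 alternatives, and not called in NCI-H647 (-0.04 ± 0.05, adjusted p = 0.56). RPL7L1, a copy of RPL7 that works in nucleolar subunit assembly, was called lower in both lines. Its log2 fold change was -0.10 and -0.19 (edgeR adjusted p = 0.0332 and 0.00044, the first lost in 3 of 12 alternatives), beside -0.32 and -0.58 for RPL7 (adjusted p = 1.6e-08 and 7.7e-10). RPL22L1, RPL26L1 and RPL36AL were not called in either line, with log2 fold changes from -0.15 to 0.13. Their partners RPL22, RPL26 and RPL36A were called lower in both, at -0.29, -0.22 and -0.19 in NCI-H1944 and -0.42, -0.35 and -0.19 in NCI-H647. The difference between a paralog and its partner was not tested.

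Pseudogenes of the family, rows named for a ribosomal protein gene with a P and a number, held 2.05 and 2.03 counts per 100 ribosomal protein counts in MPS1i libraries of NCI-H1944, against 1.98 and 2.01 in DMSO libraries. In NCI-H647 they held 2.86 and 3.15 per 100 in MPS1i libraries, against 3.13 and 3.02 in DMSO libraries, of which 77.2% lay in 1 row, RPL23AP42. That row had 17927 and 20432 counts in MPS1i libraries, against 37196 and 31118 in DMSO libraries, and its log2 fold change of -0.43 was close to the -0.40 of RPL23A. Of the readthrough loci, RPL17-C18orf32 had 29.0 and 28.7 CPM in MPS1i libraries of NCI-H1944, against 19.2 and 7.998 CPM in DMSO libraries, a small part of the 607 to 732 CPM of RPL17, and it was called higher (log2 fold change 1.08, edgeR adjusted p = 0.00137). In NCI-H647 it was not called (0.02, adjusted p = 0.867). RPS10-NUDT3 had 7.07 and 7.43 CPM in MPS1i libraries, against 4.90 and 3.86 CPM in DMSO libraries of NCI-H1944, and 36.1 and 40.6 CPM in MPS1i libraries, against 48.8 and 54.0 CPM in DMSO libraries of NCI-H647. It was called higher in NCI-H1944 (0.73, edgeR adjusted p = 0.00129) and lower in NCI-H647 (-0.42, adjusted p = 5.6e-05). RPL36A-HNRNPH2 had 5.44 and 2.13 CPM in MPS1i libraries, against 7.03 and 9.68 CPM in DMSO libraries of NCI-H1944, and was called lower there (-1.14, edgeR adjusted p = 0.00497) and not in NCI-H647 (-0.15, adjusted p = 0.246). Adding pseudogene counts to their parent genes gave 74 genes lower in NCI-H1944, while 73 were lower in NCI-H647.

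The falls were larger in NCI-H647 for most of the family. In a joint fit of the 12887 symbols that passed the filter in both lines, the difference of the effects, NCI-H647 minus NCI-H1944, was called below 0 for 57 of 78 ribosomal protein genes and above 0 for 1, beside 22.7% and 17.4% of all rows (40.1% either way). The median difference was -0.22 on the log2 scale, against -0.04 over all rows, and 74 of 78 differences were negative. Under a minimum fold of 1.2, 8 were called below 0. Genes called lower in both lines numbered 70, with 4 more in NCI-H1944 alone (RPL28, RPL30, RPS27 and RPS19) and 3 in NCI-H647 alone (RPS28, RPS29 and RPL36). How many of all symbols were called lower in both lines was not counted. Taken 1 line at a time, 12.4% (NCI-H1944) and 27% (NCI-H647) of all rows tested were called lower.

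The largest differences were those of RPL3 (-0.57 ± 0.05, edgeR adjusted p = 5e-09), RPSA (-0.57 ± 0.05, adjusted p = 1.1e-09), RPLP0 (-0.46 ± 0.05, adjusted p = 2.4e-07) and RPS29 (-0.46 ± 0.07, adjusted p = 3e-05). All 4 fell further in NCI-H647. RPL28 was the one gene called in the other direction (0.30 ± 0.05, edgeR adjusted p = 2.1e-05). RPS27, RPS19 and RPL30, uncalled in NCI-H647, did not differ between the lines past the threshold (differences of 0.05 ± 0.04, 0.01 ± 0.04 and 0.07 ± 0.06, edgeR adjusted p = 0.342, 0.854 and 0.37), nor did RPL23 (-0.03 ± 0.05, adjusted p = 0.66). Across 77 genes, leaving out the 3 low paralogs, the log2 fold changes of the lines had a Spearman rho of 0.68 and a Pearson r of 0.70, against 0.44 and 0.42 over all 12887 symbols. These are descriptions across genes, which are not independent replicates.

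**Figure D4:**
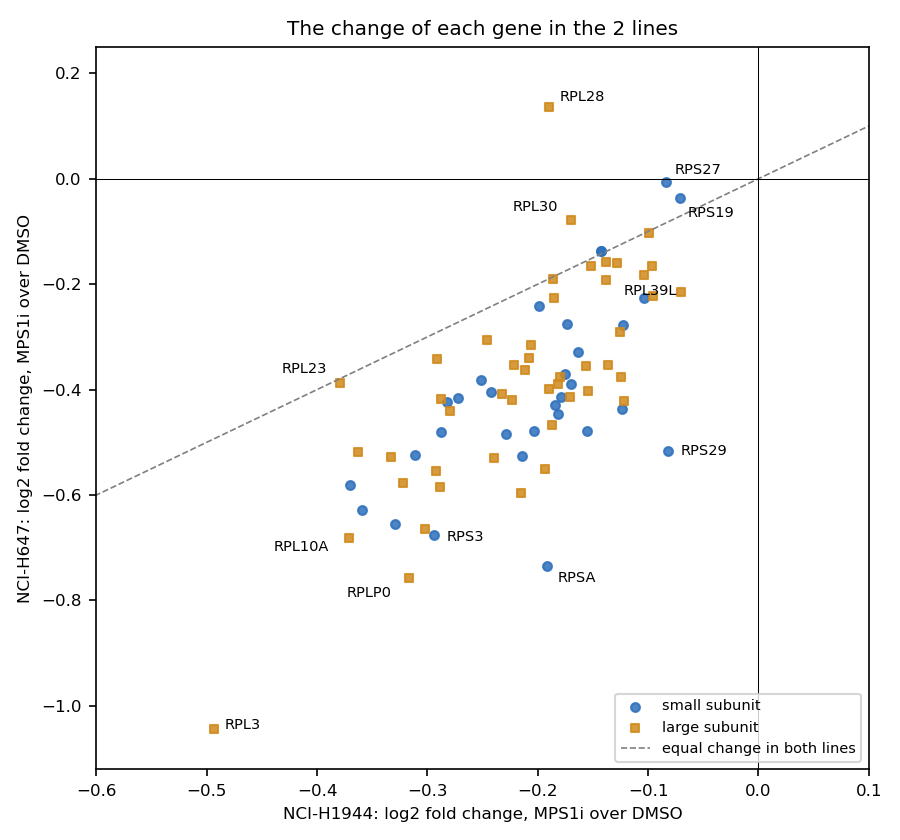
Log2 fold change of MPS1i over DMSO in NCI-H647 (y axis) against that in NCI-H1944 (x axis), 1 point for each of 78 ribosomal protein genes, marked by subunit. Most points lie below the dashed line of equal change, RPL3 is lowest in both lines, and RPL28 is the one point above 0 in NCI-H647.

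Genes of the family lie on 21 chromosomes, and 28 of the 77 hold snoRNA genes within their bounds, 60 in all. Those 28 had a median log2 fold change of -0.22 in NCI-H1944 and -0.44 in NCI-H647, against -0.18 and -0.39 for the 49 without.

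Other mRNAs known to carry a TOP motif were lower as well. Of 20 such genes outside the family, 19 were called lower in NCI-H1944 and 20 in NCI-H647, and none higher. Of all rows tested, 12.4% and 27% were called lower, and of rows with a mean of at least 100 CPM, 29.5% and 44.9%. The median log2 fold changes of the 20 genes were -0.26 and -0.55, beside -0.19 and -0.40 for the ribosomal protein genes. EIF4B, an initiation factor, had 865 and 859 CPM in MPS1i libraries, against 1349.8 and 1350.2 CPM in DMSO libraries of NCI-H1944, and 629 and 636 CPM in MPS1i libraries, against 1101 and 1141 CPM in DMSO libraries of NCI-H647. EEF1A1, the elongation factor that brings tRNA, had 8133 and 8216 CPM in MPS1i libraries, against 9892 and 9772 CPM in DMSO libraries of NCI-H1944, and 10379 and 10121 CPM in MPS1i libraries, against 17349.6 and 17368 CPM in DMSO libraries of NCI-H647. The groups of both genes were far apart, with log2 fold changes of -0.65 ± 0.02 and -0.83 ± 0.03 for EIF4B and -0.27 ± 0.01 and -0.76 ± 0.03 for EEF1A1 (highest edgeR adjusted p = 2.5e-11). HNRNPA1, a splicing protein, fell by 0.25 in NCI-H1944 and by 1.09 in NCI-H647 on the log2 scale. The one gene not called in NCI-H1944 was VIM, an intermediate filament protein (-0.04, edgeR adjusted p = 0.431).

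Genes for the proteins of the mitochondrial ribosome are nuclear and in the main without TOP starts (6 of 69 windows held the run). They were more often called lower than higher. Of 78 such genes, 22 were lower (28.2%) and 3 higher (3.85%) in NCI-H1944, beside 12.4% and 13.6% of all rows, and 38 were lower (48.7%) and 5 higher (6.41%) in NCI-H647, beside 27% and 27.3%, with median log2 fold changes of -0.09 and -0.14. Examples are MRPS27 (-0.25 and -0.79), MRPL24 (-0.16 and -0.76) and MRPL51 (-0.33 and -0.31), each called lower in both lines (the call of MRPL24 in NCI-H1944 being lost in 2 of 12 alternatives), and MRPL17, called higher in NCI-H1944 (0.38) and not in NCI-H647 (0.08, edgeR adjusted p = 0.188).

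Among 8 dedicated chaperones of ribosomal proteins, 1 was higher and 2 lower in NCI-H1944, and 2 higher and 3 lower in NCI-H647, beside 26% and 54.4% of all rows called either way. PRMT3, which modifies RPS2, fell in both lines (-0.21 and -0.81), as did PDCD2, a chaperone of RPS2 (-0.15 and -0.27); the NCI-H1944 calls were lost in 5 and 6 of 12 alternatives. TSR2, the chaperone of RPS26, was not called in NCI-H1944 (0.04) and rose in NCI-H647 (0.29, edgeR adjusted p = 0.0007). GRWD1, the chaperone of RPL3, was not called in either line (0.11 and 0.02, adjusted p = 0.0549 and 0.885). BCCIP, which escorts RPL23, was higher in NCI-H1944 (0.14, adjusted p = 0.0291), a call lost in 5 of 12 alternatives. HEATR3, which helps to bring RPL5 into the nucleus, was lower in NCI-H647 (-0.43, edgeR adjusted p = 0.00234), a call lost with DESeq2, and not called in NCI-H1944 (-0.03). AAMP was higher in NCI-H647 (0.16, adjusted p = 0.0259), a call lost in 5 of 12 alternatives, and not called in NCI-H1944 (-0.01).

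Of 11 regulators of TOP translation and growth, 1 was higher and 2 lower in NCI-H1944, and 2 higher and 4 lower in NCI-H647, again near the 26% and 54.4% of all rows called either way. LARP1 had 360.0 and 357 CPM in MPS1i libraries, against 367 and 374 CPM in DMSO libraries of NCI-H1944, and 347 and 346 CPM in MPS1i libraries, against 405 and 423 CPM in DMSO libraries of NCI-H647. Its change was called in NCI-H647 (-0.26 ± 0.03, edgeR adjusted p = 1.7e-05) and not in NCI-H1944 (-0.05 ± 0.03, adjusted p = 0.251). MTOR was lower in NCI-H647 (-0.19) and not called in NCI-H1944 (-0.05), and TSC1, an inhibitor of mTOR signalling, was higher in NCI-H647 (0.28) and not called in NCI-H1944 (-0.09). TSC2, the partner of TSC1 in the same inhibitor, was lower in NCI-H647 (-0.26, edgeR adjusted p = 0.0017), a call lost with DESeq2. EIF4EBP2, an eIF4E-binding protein, was lower there too (-0.22, adjusted p = 0.00124), and RPS6KB1, an S6 kinase, was higher (0.13, adjusted p = 0.0423), a call lost in 7 of 12 alternatives. None of these 3 was called in NCI-H1944 (-0.15, -0.12 and 0.07 in that order), though TSC2 and EIF4EBP2 passed the threshold there under some alternative. EIF4EBP1 and RHEB were lower in NCI-H1944 (-0.21 and -0.12) and not called in NCI-H647 (-0.05 and 0.04), the calls being lost in 1 and 5 of 12 alternatives. MYC, a transcription factor of ribosomal protein genes, was called higher in NCI-H1944 (0.11, edgeR adjusted p = 0.0373), a call lost in 7 of 12 alternatives, and not called in NCI-H647 (adjusted p = 0.998). These are RNA levels and say nothing of protein activity.

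**Figure D5:**
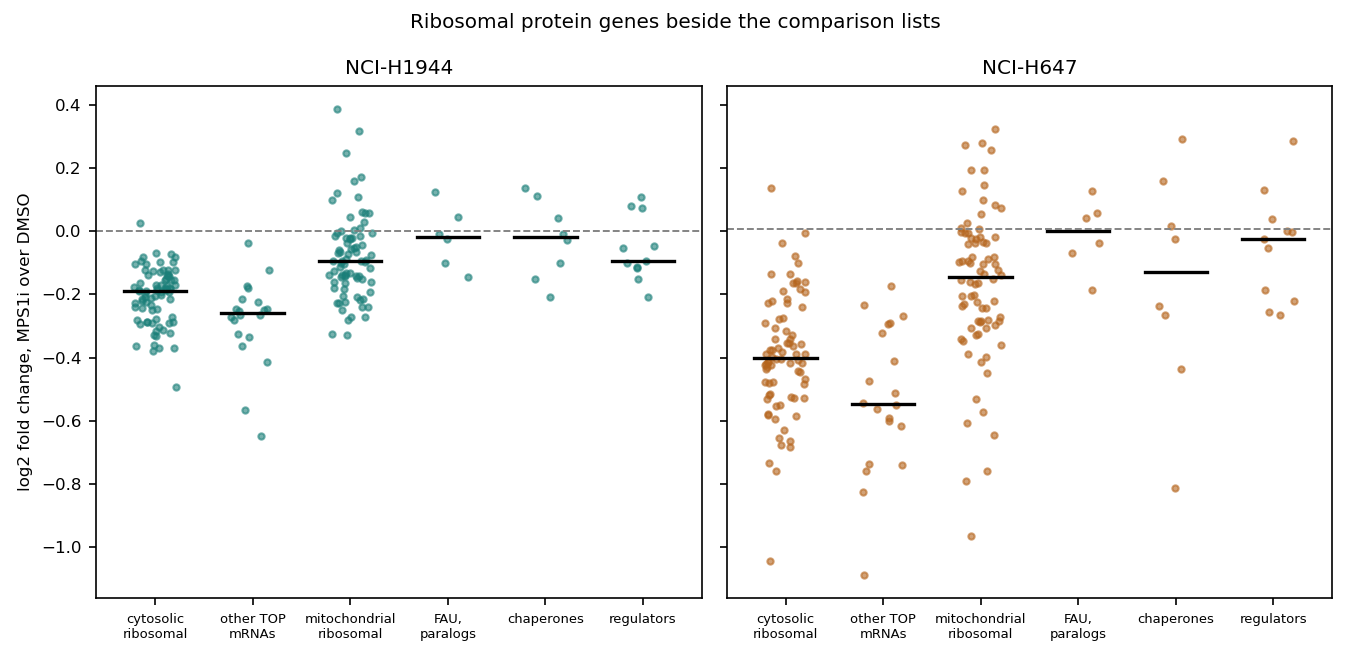
Log2 fold change of MPS1i over DMSO (y axis) for each tested gene of the cytosolic ribosomal protein family and of the 5 comparison lists, in NCI-H1944 (left) and NCI-H647 (right). Short lines are the medians of a list and the dashed line the median of all rows tested; the cytosolic ribosomal (-0.19 and -0.40) and other TOP (-0.26 and -0.55) medians lie lowest.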

How the data were processed

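Counts of reads per gene were deposited by the authors as whole numbers, not normalized, in 1 table per line. Per the submitters' processing notes, the tools were HISAT2, STAR, StringTie, featureCounts, cutadapt, Trimmomatic and Trim Galore, with GRCh38; the sources used here do not give their roles, versions or strand setting, so overlapping genes, pseudogenes and readthrough loci are uncertain. Titles gave each sample's line and treatment. No label says that replicates came from separate cultures; the spread behind each p-value is that between these samples and may be technical. Replicates correlated at 0.996 to 0.998 and differed by more than counting noise in each group (chi-square per degree of freedom 1.98 to 3.93).

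In R 4.3.3, edgeR 4.0.16 was run on all rows of a table that passed filterByExpr (minimum count 10, minimum total 15), with TMM factors, its quasi-likelihood F test of MPS1i against DMSO and Benjamini-Hochberg adjustment over all rows, at a threshold of 0.05. SE was worked back as the absolute log2 fold change divided by the square root of the F statistic, whose dispersion is moderated over all rows. CPM values are counts scaled by the TMM-adjusted library size. Lines were compared through an interaction term, with all 8 libraries fitted together. The test was checked on simulated counts. Alternatives were DESeq2 size factors, library totals alone, TMM factors without the family, the DESeq2 1.42.0 Wald test, no filter, a replicate block, a minimum fold of 1.2, pseudogene-summed counts, all 8 libraries in one fit, and each library left out. Named genes are, per line, the 5 largest falls and 5 largest rises or smallest falls, genes not called where at most 5 are not, the 4 largest differences between lines on each side, fixed members and paralogs with their partners, and in each list the 2 genes with the lowest adjusted p per line. Genes that mark the ends of a range or a lost call, VIM, the readthrough loci, and AAMP, HEATR3, TSC2, EIF4EBP2 and RPS6KB1 fall outside this rule: they were picked once values had been seen. The members and lists were chosen with earlier results of these data known. Some genes of the family and of the lists are not reported here by name. Start windows were matched to RefSeq by symbol.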

Additional observations from a re-analysis of the deposited data

Results flagged for a closer look

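For 31 of 59 named genes the change after MPS1i differed between the lines in the interaction test of the joint fit (edgeR adjusted p under 0.05). Of all 12887 rows tested, 40.1% were called either way. Some genes were named for a large difference, so the count of 31 depends in part on that choice. Each is given as the NCI-H647 effect minus the NCI-H1944 effect on the log2 scale. The line and the library kit cannot be told apart in these differences.

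Ribosomal protein genes that fell further in NCI-H647 were RPL3 (-0.57), RPSA (-0.57), RPLP0 (-0.46), RPS29 (-0.46), RPS3 (-0.40), RPL10A (-0.33), RPL7 (-0.28), RPLP1 (-0.27), RPS27A (-0.24), RPS6 (-0.23), RPL11 (-0.22), RPL10 (-0.19), RPL5 (-0.18), RPL36 (-0.17), RPL22 (-0.15) and RPL26 (-0.15). The calls of RPL22, RPL26 and RPL36 were lost in 4, 5 and 4 of the 14 alternatives without a minimum fold, and those of RPL10 and RPL5 in 1 each. RPL28 had a difference of 0.30, with a rise in NCI-H647 and a fall in NCI-H1944.

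The paralog RPS27L had a difference of -0.18, a call lost in 11 of 14 alternatives. Among other TOP mRNAs, HNRNPA1 differed by -0.86, EEF1A1 by -0.52 and EIF4B by -0.20. Among mitochondrial ribosomal protein genes, MRPL24 differed by -0.62, MRPS27 by -0.56 and MRPL17 by -0.33, the last after a rise called in NCI-H1944. Of chaperones and regulators, PRMT3 differed by -0.63, HEATR3 by -0.43, LARP1 by -0.23, BCCIP by -0.18, MTOR by -0.16, MYC by -0.13 and TSC1 by 0.35. The calls of BCCIP, HEATR3, MTOR and MYC were lost in 7, 5, 11 and 8 of 14 alternatives.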

How the results depend on the processing

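Leaving aside the minimum fold, 63 of the 74 calls of the family in NCI-H1944 and 68 of 74 in NCI-H647 were made under all 12 alternatives, and 40 of 58 differences between the lines under all 14. The calls of RPL35, RPL35A, RPL37, RPS21 and RPS26 in NCI-H1944 and of RPL19 and RPL37 in NCI-H647 are among those lost. Calls gained were not counted. Genes not called in the main fit could pass the threshold under some alternative. Among them were TSC2, EIF4EBP2, GRWD1 and RPS28 in NCI-H1944 and RPL30, RPL26L1 and RPL36AL in NCI-H647. Under a minimum fold of 1.2, 10 genes were lower in NCI-H1944, none (0) was higher in NCI-H647, and 8 differences were called below and 0 above 0, because the test asks for a larger change. With library totals alone the median log2 fold change was -0.20 in NCI-H1944 and -0.35 in NCI-H647, and 3 differences were called above 0; with all 8 libraries in one fit the NCI-H1944 median was -0.18. The cause of these shifts was not tested. No sign of pairing by replicate number was seen (correlation of deviations 0.037 in NCI-H1944 and -0.032 in NCI-H647). With 2 libraries a group, this cannot exclude pairing. With the replicate block 75 genes were lower in NCI-H1944, 74 lower and 1 higher in NCI-H647, with 59 differences below and 1 above 0.

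With each library left out in turn, a lone sample being assumed to vary like the others, 68 to 72 genes were lower and none (0) higher in NCI-H1944 and 69 to 74 lower and 1 higher in NCI-H647. The medians ran from -0.20 to -0.19 and from -0.44 to -0.37, and the differences in share from -1.09 to -0.994 and from -1.76 to -1.59 percentage points. From 47 to 61 differences were called below 0 and 1 to 2 above 0, the 2 without DMSO replicate 1 of NCI-H647.

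Changes of sign were all in values not called in the main fit. With library totals alone they came in NCI-H647 to 0.024 for BCCIP, 0.048 for MYC, 0.012 for RPS19, 0.042 for RPS27 and 0.011 for RPS27L, and without a filter to -0.012 for GRWD1. With a library left out, the values in NCI-H1944 ran from -0.062 to 0.0062 for FAU, -0.23 to 0.34 for RPL10L, -0.052 to 0.031 for RPL26L1, -0.23 to 0.032 for RPL39L, -0.047 to 0.026 for AAMP, -0.14 to 0.084 for HEATR3 and -0.016 to 0.10 for TSR2. In NCI-H647 they ran from -0.032 to 0.0902 for FAU, -0.049 to 0.061 for GRWD1, -0.034 to 0.014 for MYC, -0.0075 to 0.061 for RHEB, -0.21 to 0.044 for RPL26L1, -0.0020 to 0.11 for RPL36AL and -0.0503 to 0.017 for RPS27.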
